A study of Mus musculus with 6 samples.

Results

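The keratin-associated protein (KAP) genes were described on 6 oligonucleotide arrays of mouse skin RNA. Members were all genes whose platform symbol starts with Krtap and that have a probe set naming them alone, and where a gene had several such probe sets the one brightest on average across the arrays (mean log2 signal) stood for it. This gave 38 members of 18193 genes in all. The arrays compared mice labelled Ezh1/2 WT with mice labelled Ezh1/2 2KO, in which both genes for the methyltransferases of Polycomb repressive complex 2 are lost. From each genotype 3 populations were sorted by flow cytometry, with 1 array each: basal epidermal cells, matrix cells of the hair bulb, and cells of the outer root sheath (ORS). All mice were 14 days old and of a mixed C57B6 and CD1 background, and the 2KO basal epidermis RNA came from females while the other 5 samples came from both sexes. The labels do not give the promoter that drove the deletions, the exons removed, or how many mice were pooled for a sample.

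KAPs are small proteins of the hair shaft. They fill the space between the hair keratin filaments and crosslink them through cysteine disulphide bonds. Families are grouped by composition into high-sulphur, ultra-high-sulphur and high-glycine-tyrosine proteins, and their genes lie in clusters. They are switched on late, as matrix cells leave the bulb and build the cortex and cuticle of the shaft, under factors such as HOXC13 and FOXN1. A hair shaft gene in the basal epidermis or ORS is thus outside its usual site.

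The values are MAS5 signals, a brightness per probe set scaled within each array. A floor was set at 83.2 units, the median over probe sets and arrays, and dimmer signals were raised to it before a ratio was taken. A gene was called higher or lower at 2-fold, and a gene below the floor on both arrays of a pair was not measured in that pair. Where just 1 signal of a pair reached the floor, the fold is given as "at least", since the true fold may be larger. With 1 array in each group there is no spread between replicates, so no difference below has a replicate check, none was tested, and every difference is relative to the array totals.

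The targeted genes were lower on the 2KO arrays, with Ezh1 at 51.6 to 89.4 in 2KO against 317 to 401 in WT. The smallest difference in Ezh2 was in matrix, with 3578 in WT and 1725 in 2KO. It read 2563 and 432 in basal epidermis and 2151 and 378 in ORS. The probes may lie outside the deleted parts, which the labels do not give. All Ezh2 signals came from the same probe set. Its ratio of WT over 2KO was 2.07 in matrix, against 5.93 for the basal epidermis pair and 5.69 for the ORS pair. Why the matrix ratio was smaller was not tested, nor was how complete the loss or the sort was for the 2KO matrix array. The marker lists separated the sorted populations unequally. Basal epidermal markers summed to 131491 in WT and 113346 in 2KO basal epidermis, against 104504 and 105264 in ORS. ORS markers summed to 50200 in WT and 39362 in 2KO ORS, against 32141 and 27505 in basal epidermis. The 2KO ORS sum was below that of the 2KO matrix array (48068). The matrix list set the matrix arrays apart. All 7 matched genes of the matrix list were above the floor on both matrix arrays, with a summed signal of 42759 in WT and 32443 in 2KO, against 1312 to 2281 on the other 4 arrays. The 2KO matrix array differed from the WT matrix array in genes of other cells. Summed signals of melanocyte markers (2126 against 3263) and sebaceous gland markers (7262 against 8112) were lower on it. The summed signals of all other lists for other cells were higher, though members of a list could go either way. In the suprabasal list Krt1 (462 in WT and 896 in 2KO) and Krt10 (2309 and 5537) were higher. Lor (1077 and 565), Ivl (627 and 353) and Flg (218 and 27.2) were lower. Sox2 of the dermal papilla list read 324 on the 2KO matrix array, and 509 and 507 on the 2KO basal epidermis and ORS arrays. Among the immune markers H2-Eb1 read 2873 on the 2KO matrix array, and 3627 and 3517 on the 2KO basal epidermis and ORS arrays. The summed signal was 48068 against 10323 for 7 ORS markers, 48825 against 27350 for 7 basal epidermal markers, 2771 against 454 for 5 skeletal muscle markers, 4305 against 858 for 7 immune markers, and 35961 against 19960 for 7 fibroblast markers.

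Most of the family was dim. Of the 38 members, 13 (34.2%) were above the floor on at least 1 array, where 69.5% of all genes were, and 1, Krtap10-4, was above it on all 6. The other 25 members lay between 0.583 and 66.5 signal units on every array and were not measured in any pair. They comprise all 5 members of the Krtap5 group, all 6 of the Krtap19 group, Krtap6-2, Krtap6-3 and Krtap6-5, Krtap4-1, Krtap4-2 and Krtap4-7, and Krtap1-5, Krtap9-3, Krtap13, Krtap16-3, Krtap21-1, Krtap26-1, Krtap28-13 and Krtap31-1. By RefSeq, 20 members lie on chromosome 16, of which 7 passed the floor on some array, 10 on chromosome 11 (4), 2 on chromosome 10 (2), 5 on chromosome 7 (0) and 1 on chromosome 1 (0). Of the 13, 4 passed it on a single array (Krtap14, Krtap3-1, Krtap4-16 and Krtap4-6), so for these the floor fixes the direction of any ratio. A gene below the floor is only bounded, and its transcript is not shown to be absent.

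Some of the members above the floor are neighbours. In RefSeq order Krtap14 and Krtap15 are neighbours, and so are Krtap8-1, Krtap7-1 and Krtap11-1, all on chromosome 16. The 250 bases upstream of the annotated start are shown for 6 members, because these genes differed in how they stood in 2KO matrix: Krtap15, Krtap14 and Krtap8-1 were lower, Krtap11-1 was level, and Krtap13-1 and Krtap17-1 were higher. Sequences are from RefSeq, build GRCm38.p6, written 5′ to 3′ on the strand of the gene, with motif matches in capitals. Krtap15 is at chr16:88828759-88829008 on the plus strand, Krtap14 at chr16:88826146-88826395 on the minus strand, Krtap8-1 at chr16:89487953-89488202 on the minus strand, Krtap11-1 at chr16:89571184-89571433 on the minus strand, Krtap13-1 at chr16:88728612-88728861 on the plus strand and Krtap17-1 at chr11:99993995-99994244 on the minus strand.
Krtap15: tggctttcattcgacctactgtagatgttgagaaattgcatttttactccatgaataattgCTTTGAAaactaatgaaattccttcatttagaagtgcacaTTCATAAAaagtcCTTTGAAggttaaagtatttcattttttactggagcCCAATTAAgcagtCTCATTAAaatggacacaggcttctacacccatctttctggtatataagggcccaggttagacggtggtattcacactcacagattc
Krtap14: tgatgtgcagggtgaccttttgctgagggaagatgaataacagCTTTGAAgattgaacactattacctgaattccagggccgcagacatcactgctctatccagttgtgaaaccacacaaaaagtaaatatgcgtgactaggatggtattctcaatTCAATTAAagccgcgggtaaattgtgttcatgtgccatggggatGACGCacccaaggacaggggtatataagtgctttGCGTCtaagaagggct
Krtap8-1: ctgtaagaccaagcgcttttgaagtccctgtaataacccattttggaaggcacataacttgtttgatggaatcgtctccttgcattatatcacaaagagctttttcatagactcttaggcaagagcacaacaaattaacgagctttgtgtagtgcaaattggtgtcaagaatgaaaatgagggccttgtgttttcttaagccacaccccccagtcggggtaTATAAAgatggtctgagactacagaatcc
Krtap11-1: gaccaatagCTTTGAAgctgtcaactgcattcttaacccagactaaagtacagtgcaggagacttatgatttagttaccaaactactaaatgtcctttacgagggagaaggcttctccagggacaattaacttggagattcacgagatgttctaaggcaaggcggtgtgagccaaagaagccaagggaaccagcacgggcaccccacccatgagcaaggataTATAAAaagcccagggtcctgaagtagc
Krtap13-1: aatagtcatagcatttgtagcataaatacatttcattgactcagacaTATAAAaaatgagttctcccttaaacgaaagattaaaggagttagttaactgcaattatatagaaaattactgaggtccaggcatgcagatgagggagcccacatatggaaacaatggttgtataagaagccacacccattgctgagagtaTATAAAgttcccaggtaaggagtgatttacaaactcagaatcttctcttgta
Krtap17-1: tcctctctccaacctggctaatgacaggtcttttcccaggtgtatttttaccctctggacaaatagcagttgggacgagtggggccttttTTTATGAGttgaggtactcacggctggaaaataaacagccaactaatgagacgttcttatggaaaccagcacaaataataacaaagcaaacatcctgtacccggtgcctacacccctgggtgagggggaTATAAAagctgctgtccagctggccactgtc
Krtap14 and Krtap15, on opposite strands, are transcribed away from each other.

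The motifs searched, on both strands, were the TATA box (TATAAA), the LEF1/TCF motif (CTTTGAT or CTTTGAA), the FOXN1 core (GACGC) and the HOXC13 motif, written out as TTAATNAA, TTAATNAG, TTAATNGA, TTAATNGG, TTTATNAA, TTTATNAG, TTTATNGA and TTTATNGG. Matches of the TATA box and the HOXC13 motif can overlap. The promoter table used here matched 36 of the 38 members, without Krtap7-1 and Krtap12-1. TATAAA was in 28 of them (77.8%) and in 12.4% of 32851 promoter windows of that length. The HOXC13 letters were in 17 (47.2%) and in 17.2% of all windows, the LEF1/TCF letters in 8 (22.2%) and in 7.48%, and the FOXN1 core in 2 (5.56%) and in 22.6%. Members had a median of 2 CG dinucleotides in the window, with a highest count of 6, against a median of 6 over all windows, and a median GC content of 40.2% against 52.4%. AT-rich windows hold AT-rich motifs more often, so these shares move with base composition.

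Among the 6 windows shown, Krtap15 held 3 matches of the HOXC13 letters and 2 of the LEF1/TCF letters, and Krtap14 held 1 of each and 2 of the FOXN1 core. TATAAA began at position -29 from the start in Krtap8-1, -28 in Krtap11-1 and -31 in Krtap17-1. These exact letters were not found for Krtap14 and Krtap15, whose windows hold tatataag, a form the search did not cover. Krtap14 and Krtap15 are thus not shown to lack a TATA box. Krtap8-1 and Krtap13-1 held only TATAAA. A match is a description of the letters and not a bound site.

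Several members were brightest in matrix in both genotypes. In WT, 6 of 10 members above the floor on a WT array were at least 2-fold brighter in matrix than in both other populations, namely Krtap8-1, Krtap7-1, Krtap11-1, Krtap13-1, Krtap14 and Krtap15, where 6.45% of all genes were. In 2KO, 5 of 11 were, the same genes without Krtap14, where 2.49% of all genes were. Krtap14 dropped out because its 2KO matrix signal was below the floor. In WT it passed the floor in matrix alone, so no other population could have been called its richest. All 6 members richest in WT matrix lie on chromosome 16. The shares of all genes in this paragraph are of the 11650 genes above the floor on a WT array and the 12327 above it on a 2KO array. One member, Krtap17-1, was instead at least 2-fold brighter in ORS than in both other populations in both genotypes, as were 3.42% of all genes in WT and 2.77% in 2KO. At least 2-fold brighter in basal epidermis than in both others were 0 members in either genotype, where 3.1% of all genes in WT and 2.47% in 2KO were.

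The high-glycine-tyrosine members Krtap8-1 and Krtap7-1 were lower in 2KO matrix. Krtap8-1 read 11200.4 in WT and 4595 in 2KO matrix, 706 and 21.1 in basal epidermis, and 509.7 and 179 in ORS. The WT array was the brighter of every pair, and the ratio was 2.44-fold lower in matrix, 2.85-fold lower in ORS and at least 8.48-fold lower in basal epidermis. Krtap7-1 read 2629 in WT and 581 in 2KO matrix, 127 and 24.5 in basal epidermis, and 111 and 62.4 in ORS. It was 4.52-fold lower in matrix, the 10th lowest ratio of the 11661 genes measured there, while outside matrix the WT signals lay so near the floor that only bounds of 1.53-fold and 1.33-fold lower could be given. In bulk RNA of a sorted population, fewer shaft-forming cells and less RNA per cell cannot be told apart.

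The high-sulphur members split in 2KO matrix. Krtap15 read 2739 in WT and 268 in 2KO matrix, 226 and 10.7 in basal epidermis, and 185 and 38.6 in ORS. It was 10.2-fold lower in matrix, the lowest ratio of all 11661 genes measured in that population, and at least 2.22-fold lower in ORS and at least 2.71-fold lower in basal epidermis. Its neighbour Krtap14 read 246 in WT and 45.3 in 2KO matrix, at least 2.96-fold lower, and was below the floor on the other 4 arrays, with a highest signal there of 62.6. Since Krtap14 passed the floor on the WT matrix array alone, its ratio could only be lower.

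Krtap11-1, a neighbour of Krtap7-1, read 2716 in WT and 2713 in 2KO matrix. The gene rests on 1 probe set whose suffix marks possible cross-hybridisation, and without such probe sets it was not measured. In basal epidermis its signal was 255 on the WT and 16.9 on the 2KO array, at least 3.06-fold lower, and in ORS 176 and 95.6, which was 1.84-fold lower. Its matrix log2 ratio was close to 0 (-0.0015), and its sign turned with the scaling, from -0.63 with the hybridisation controls to 0.03 with quantile normalization. Krtap13-1 went the other way in matrix, at 467 in WT and 1300.1 in 2KO, 2.78-fold higher. In basal epidermis its signal was 157 on the WT and 70.5 on the 2KO array, at least 1.89-fold lower, and in ORS 81.5 and 162, at least 1.95-fold higher. With the hybridisation controls as the scale its matrix log2 ratio was 0.85, below 2-fold.

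**Figure D1:**
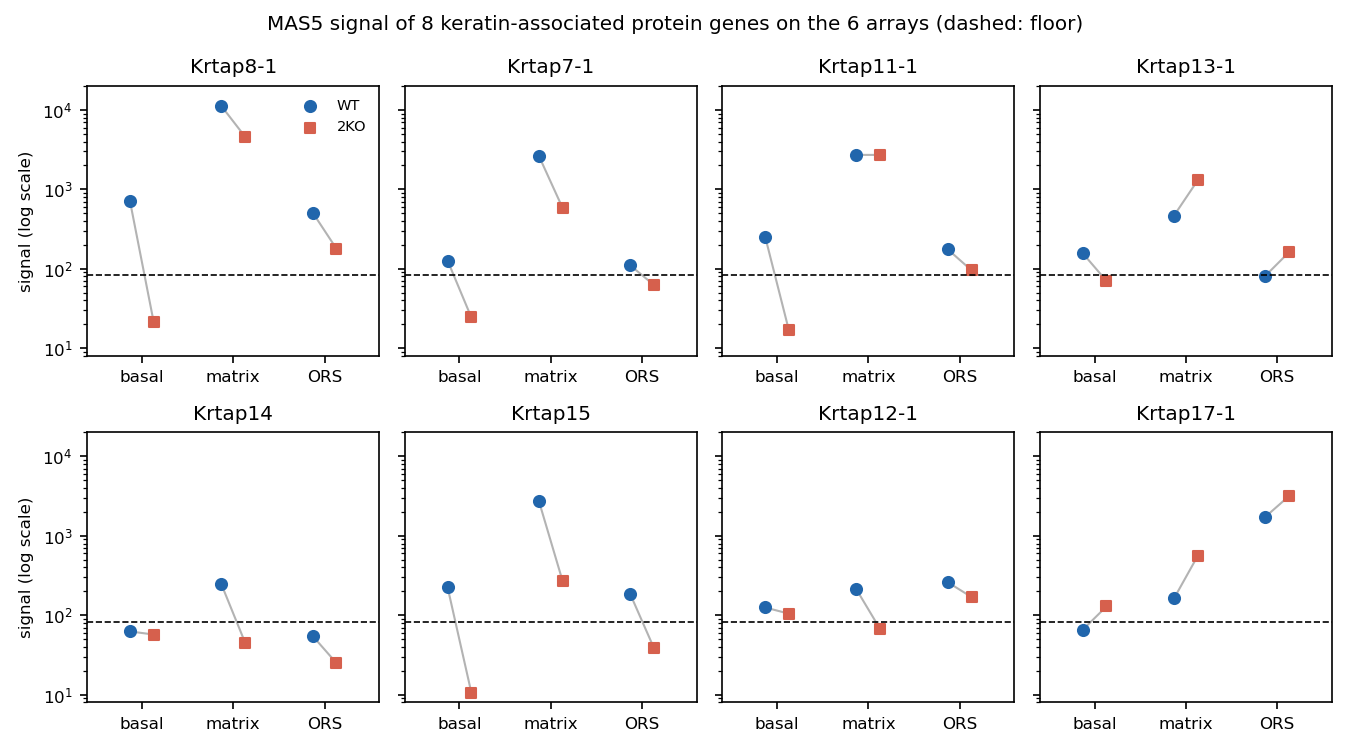
MAS5 signal (log axis) of 8 KAP genes in basal epidermis, matrix and ORS, 1 point per array, with WT as circles, 2KO as squares, a grey line joining the pair and the floor of 83.2 dashed. The first 6 genes peak in WT matrix or, for Krtap13-1, 2KO matrix, Krtap11-1 is level between the matrix arrays (2716 and 2713), and Krtap17-1 peaks in ORS.

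Krtap12-1, a high-sulphur member on chromosome 10, read 211 in WT and 66.9 in 2KO matrix, at least 2.54-fold lower. It was not richest in matrix, with 260.4 and 169.7 in ORS and 125 and 105 in basal epidermis. A second probe set of Krtap12-1 lay below the floor on all 6 arrays (2.12 to 29.7), and with the mean over both probe sets the gene was not measured in any pair. Krtap12-1 therefore rests on 1 of 2 probe sets.

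Krtap17-1, an ultra-high-sulphur member on chromosome 11 beside the hair keratin genes Krt33a and Krt33b, was brightest in ORS. It read 1734 in WT and 3172 in 2KO ORS, 163 and 559 in matrix, and 65.5 and 129 in basal epidermis. The 2KO array was the brighter of every pair, by 3.43-fold in matrix, 1.83-fold in ORS and at least 1.55-fold in basal epidermis. The WT ORS signal was 10.6 times the WT matrix signal of the same probe set, and the ORS markers were also higher on the 2KO matrix array, as given above. What part that has in the 2KO matrix signal was not tested. No second probe set names Krtap17-1 alone, and how specific this probe set is was not tested.

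The remaining members above the floor were dim. Krtap10-4, a high-sulphur member, read 114 to 223 on the 6 arrays and differed by at most 1.56-fold between genotypes. Krtap22-2 was just above the floor in WT basal epidermis (89.6) and WT matrix (97.1) and at 2.84 to 4.78 on the 3 2KO arrays. Krtap4-16, Krtap3-1 and Krtap4-6 passed the floor on 1 2KO array each, at 112 in basal epidermis and at 89.4 and 100.2 in matrix. These 3 were below the floor in WT, so their ratios could not have been lower.

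Counted over the family, 5 members were at least 2-fold lower and 2 at least 2-fold higher in 2KO matrix, of 12 measured and 38 in all. Of all genes measured in matrix 1.62% were lower and 9.03% higher. In basal epidermis 3 members were lower and 0 higher of 10 measured, where 4.09% of all genes were lower and 6.59% higher. In ORS 2 were lower and 0 higher of 8 measured, where 4.75% of all genes were lower and 8.16% higher. The median log2 ratio of the measured members was -0.19 in matrix, -0.43 in basal epidermis and -0.51 in ORS, against 0.03, 0.04 and 0.01 for all measured genes. Of the measured members 3, 6 and 2 had a 2KO signal below the floor and 2, 2 and 1 a WT signal below it, and for these the floor fixes the sign.

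**Figure D2:**
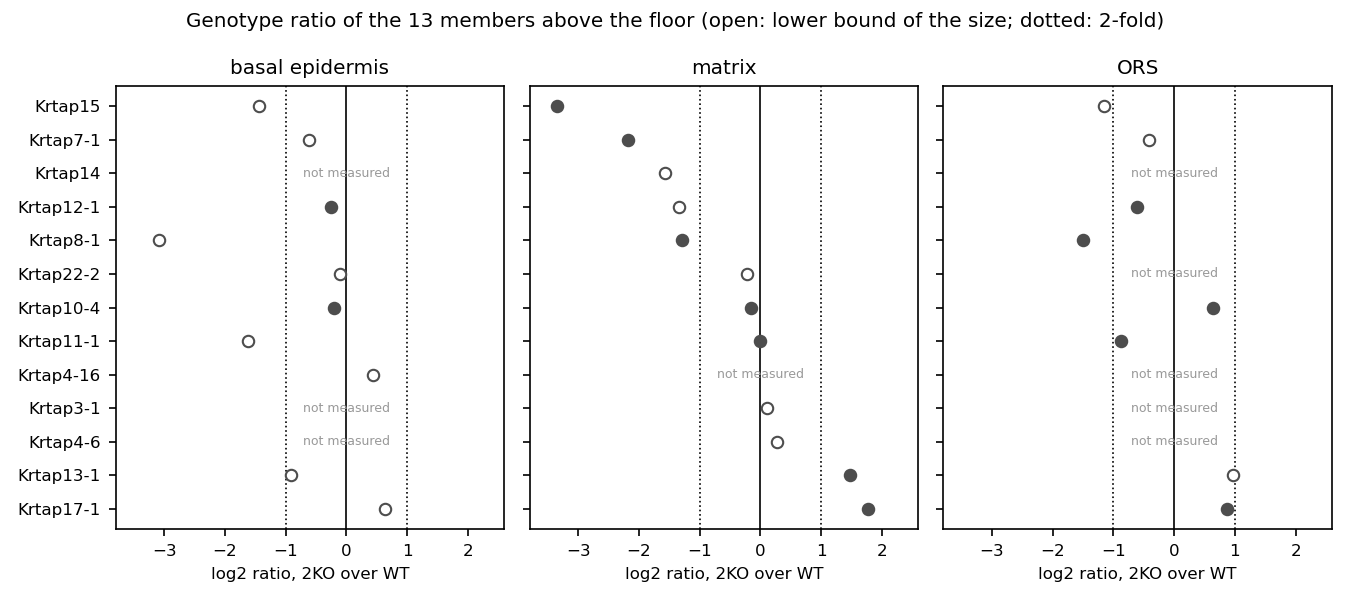
Log2 ratio of 2KO over WT for the 13 members above the floor on at least 1 array, in basal epidermis, matrix and ORS, with filled points where both signals were above the floor and open points where the size is a lower bound. In matrix 5 members lie left of the 2-fold line, Krtap15 farthest, and Krtap13-1 and Krtap17-1 lie right of it.

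Only Krtap15 and Krtap8-1 of the 38 members were at least 2-fold lower in all 3 populations. The members measured in all 3 were the 8 measured in ORS. Of all genes, 19 of the 10832 measured in all 3 were lower in each.

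The hair keratins are the filaments that KAPs bind, so they were set beside the members. The genes in this paragraph beyond the 3 largest differences in matrix (Krt33b, Krt84 and Krt31) were chosen after their values were seen. Of 12 matched shaft keratins 11 were measured in matrix, with 1 higher (Krt84, at least 2.18-fold), 1 lower (Krt33b, at least 2.27-fold) and 9 within 2-fold. Krt35, a keratin of matrix, cortex and cuticle, read 19670.4 in WT and 18316 in 2KO matrix. Krt36 read 2001 and 1902, Krt33a 2169 and 1673, and Krt31, a cortex keratin, 1303 and 2361. Of those within 2-fold, Krt34 (122 and 34.4) and Krt82 (47.2 and 92.6) are known only as bounds. The median of the shaft keratins in matrix was -0.10, and that of the KAP genes -0.19. Most measured shaft keratins were thus not called on the arrays where 5 KAP genes were lower, 2 higher and 5 not called. Most of the 5 KAP genes not called were known only as bounds. Of those 5 lower KAP genes, Krtap14 and Krtap12-1 had a 2KO signal below the floor.

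Set against Krt35 on the same pair of matrix arrays, which removes the scaling of the arrays, Krtap15 was 9.50-fold lower, Krtap7-1 4.21-fold lower and Krtap8-1 2.27-fold lower. On the same scale Krtap10-4 was 1.04-fold lower, Krtap11-1 1.07-fold higher, Krtap13-1 2.99-fold higher and Krtap17-1 3.69-fold higher. Krt35 was chosen as the reference after its values were seen, and another keratin would give other folds. For example, Krt31 was itself 1.81-fold higher in 2KO matrix. The folds relative to Krt35 show unequal differences within 1 pair of arrays, and not which of the genes changed. A second listed group, 10 inner root sheath genes, had 3 lower and 1 higher of 10 measured in matrix, with a median of -0.68. Krt73 was 3.66-fold higher, and Krt27 and Tgm3 were each 2.34-fold lower.

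Of 22 matched shaft regulators and other shaft genes, all measured in matrix, 7 were lower and 1 was higher, with a median of -0.56. The largest differences were those of Padi4 (5.51-fold lower) and Padi3 (3.23-fold lower), enzymes that convert arginine to citrulline, and of the signal Shh (2.86-fold higher). Hoxc13 and Foxn1, transcription factors that act on KAP genes, were named after their values were seen. Hoxc13 read 5489 in WT and 3286 in 2KO matrix, 1.67-fold lower, and Foxn1 read 671 and 637, 1.05-fold lower. Both were within 2-fold.

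**Figure D3:**
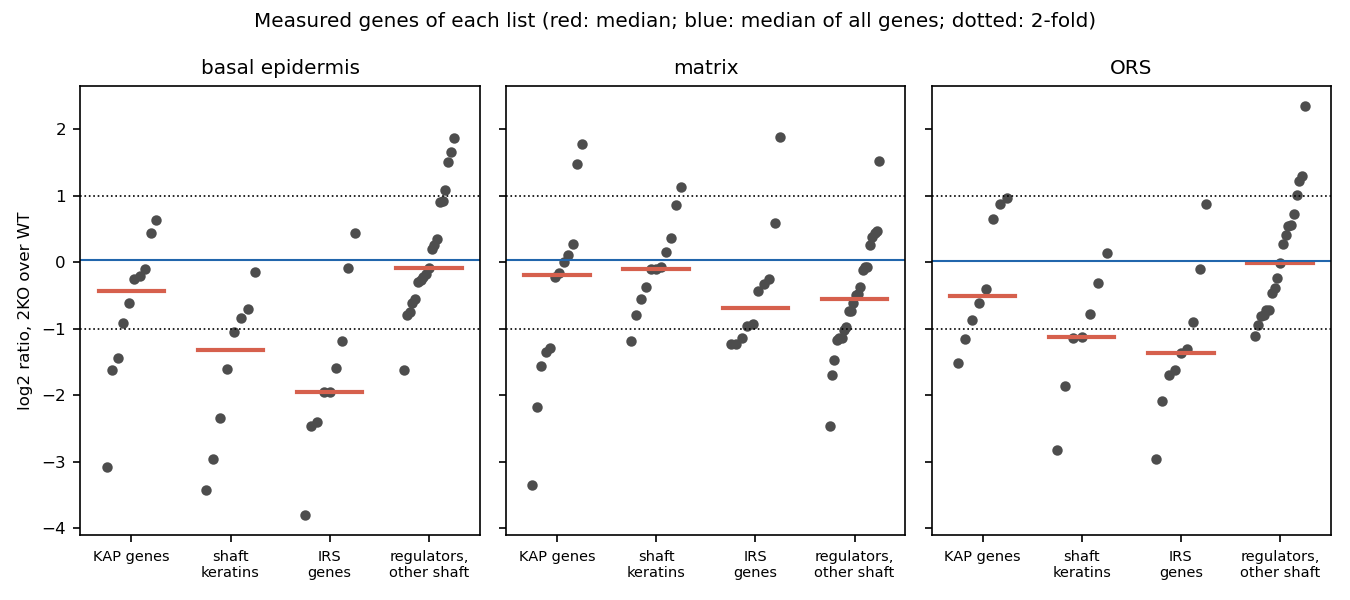
Log2 ratio of 2KO over WT for each measured KAP gene, shaft keratin, inner root sheath (IRS) gene, and shaft regulator or other shaft gene, by population, with the list median in red, the median of all genes in blue and 2-fold dotted. In matrix the shaft keratins cluster near 0 (median -0.10) while KAP genes spread from -3.35 to 1.78, and in basal epidermis and ORS the keratin and sheath lists lie mostly below 0.

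Outside the matrix most measured shaft keratins and sheath genes were at least 2-fold lower in 2KO, and most measured KAP genes were not called. In basal epidermis most of these uncalled KAP genes were known only as bounds, as were some in ORS. The KAP genes brightest in WT basal epidermis, Krtap8-1 (706), Krtap11-1 (255) and Krtap15 (226), were all lower there. The floor leaves dimmer members little room to be called lower, so the lists are not shown to differ. In basal epidermis 5 of 8 measured shaft keratins and 7 of 9 sheath genes were lower and 0 higher, with medians of -1.32 and -1.95. In ORS 4 of 7 and 6 of 9 were lower and 0 higher, with medians of -1.13 and -1.36. Of 19 measured shaft regulators and other shaft genes, 4 were higher and 1 was lower in each of these populations. The summed signal of 4 sebaceous gland markers was 27326 in WT and 6598 in 2KO ORS, and 7271 and 3190 in basal epidermis. Krt79, a keratin of the ORS marker list, read 18647 and 5691 in ORS and 11582 and 5840 in basal epidermis. What part these have in the ratios of the KAP genes, shaft keratins and sheath genes was not tested. Krt35 had a basal epidermis signal of 892 in WT and 36.5 in 2KO, at least 10.7-fold lower, and 645 and 90.8 in ORS, 7.11-fold lower. The sheath keratin Krt25 was 7.79-fold lower in ORS and 13.9-fold lower in basal epidermis.

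For 4 of the 6 members richest in WT matrix, the WT signals outside matrix were a small share of the matrix signal of the same probe set. In WT basal epidermis this share was 6.30% for Krtap8-1, 4.83% for Krtap7-1, 9.38% for Krtap11-1 and 8.24% for Krtap15, and in WT ORS 4.55%, 4.20%, 6.46% and 6.75%. These 4 were picked with their values known from members already called brighter in matrix, so their closeness follows from that choice. Krtap14, also richest in WT matrix, had only a bound of at most 33.8% in both populations. Krt35 (4.53% and 3.28%) and Krt36 (4.59% and 5.25%) had shares of that order, while Krt31 (19.4% and 16.6%), Krt33a (19.5% and 8.45%) and Krtap13-1 (33.7% in basal epidermis and at most 17.8% in ORS) were higher. Other members had larger shares, with Krtap10-4 at 96.0% and 104%, Krtap12-1 at 59.4% and 123%, and Krtap17-1 at 1064% in ORS. Among the shaft keratins, Krt32 stood at 533% and 156% and Krt81 at 92.3% and 67.1%. The genes in this comparison were chosen after their values were seen.

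In 2KO the share of Krtap8-1 was at most 1.81% in basal epidermis and 3.90% in ORS, and that of Krtap11-1 at most 3.07% and 3.52%. Krt35 stood at or below 0.454% and at 0.496%. For Krtap15 and Krtap7-1 the lower 2KO matrix signal left only bounds of 31.0% and 14.3% in both populations. The part that stray matrix cells in the WT sorts have in these shares was not tested. The summed signal of the 7 matrix markers was 1759 in WT and 1312 in 2KO basal epidermis, and 2182 and 2281 in ORS. Of the 7, Krt35 and Msx2 were lower and Lef1 and Msx1 higher in 2KO in both populations. Hoxc13 was higher in basal epidermis (189 and 225) and lower in ORS (726 and 442). Foxn1 read 97.6 and 65.0 in basal epidermis and was below the floor in ORS, and Shh was below the floor in basal epidermis and read 147 and 217 in ORS.

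**Figure D4:**
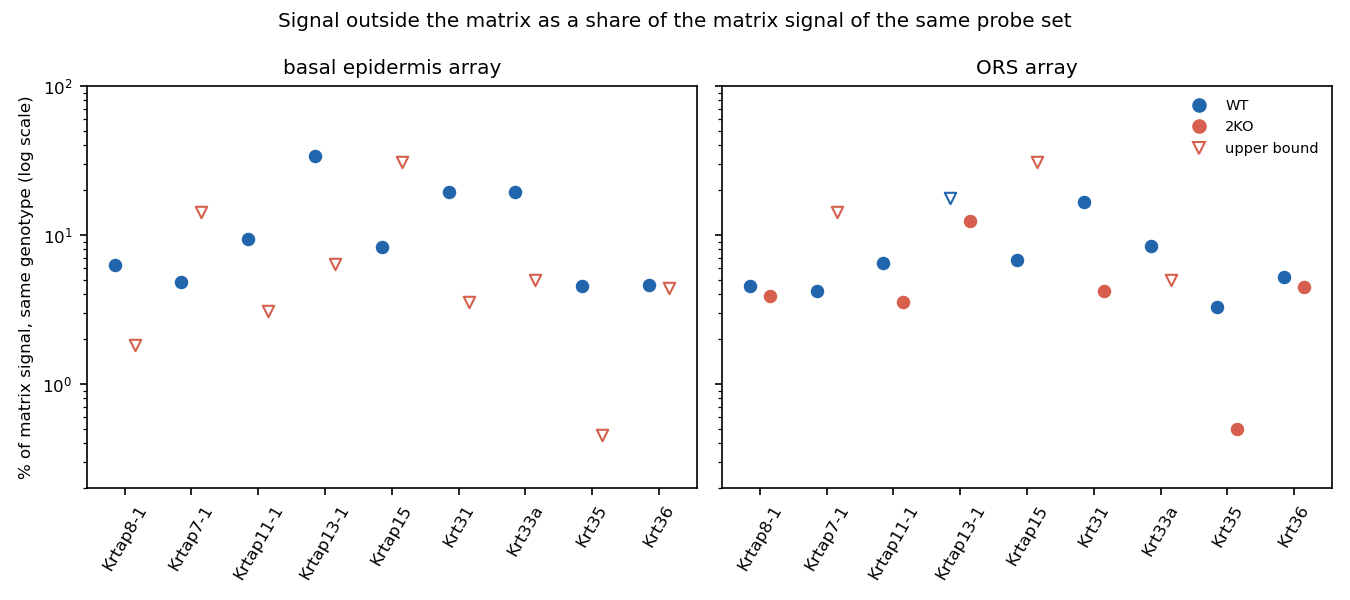
Signal on the basal epidermis and ORS arrays as a percentage (log axis) of the matrix signal of the same probe set and genotype, for 5 KAP genes and 4 shaft keratins, with WT in blue, 2KO in red and open triangles for upper bounds. In WT, Krtap8-1, Krtap7-1, Krtap11-1 and Krtap15 lie between 4.20% and 9.38%, and Krtap13-1 at 33.7% in basal epidermis and at most 17.8% in ORS.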

How the data were processed

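Each of the 6 samples (2 genotypes in 3 sorted populations) had 1 array, labelled by in vitro transcription. The deposited table holds linear intensities, 1 per probe set and array, for 45101 probe sets, 64 of them controls. MAS5 is named in the submitters' processing notes, while its version is not given in the sources used here. Trimmed means of the deposited intensities equal 500.003 on all 6 arrays, so the authors had scaled them, and no further scaling was done.

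Probe sets were named from the platform annotation, and all 38 member IDs were found in RefSeq (GRCm38.p6), with the same symbols. The 6 probe sets naming a Krtap gene together with others were left out. Log2 ratios and counts were computed in Python 3.11.15 with pandas 2.3.3, and the calling was tested on simulated data. Members, lists and tests were chosen with earlier results of these data known. Named with all values were Krtap15, Krtap8-1, Krtap7-1, every member called in some population, and the 5 brightest members in WT matrix. KAP classes are textbook classes, since protein sequences were not used here. Alternatives covered scaling, floor, probe set choice and fold. Having 1 array per group limits the precision.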

Additional observations from a re-analysis of the deposited data

Results flagged for a closer look

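Krtap13-1 differed in direction between populations. Its log2 ratio of 2KO over WT was 1.48 in matrix and 0.96 in ORS, and -0.92 in basal epidermis, where the 2KO signal lay below the floor. The difference between populations was not tested, since each rests on 1 array per genotype.

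A probe set that names Krtap3-2 and Krtap3-3 together, both high-sulphur genes that neighbour Krtap3-1 on chromosome 11, was left out of the members because it names 2 genes. It read 432 on the WT matrix array and 135 on the 2KO matrix array, 3.19-fold lower, and was below the floor on the other 4 arrays. The second probe set naming the same 2 genes lay between 0.29 and 12.2 on all 6 arrays.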

How the results depend on the processing

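No paired analysis was possible because each group has 1 array and the labels carry no replicate numbers, and no array could be left out of a pair. Of 12 called member ratios, 8 kept their call under every scaling, floor and probe set alternative in which they were measured. Only Krtap15, Krtap8-1 and Krtap7-1 in matrix were measured and called under all of these alternatives. The rest of the 8 were Krtap15 in basal epidermis and ORS, Krtap11-1 in basal epidermis, and Krtap14 and Krtap12-1 in matrix. With the floor at the 75th percentile these were not measured, so their calls were not kept there. Calls were lost for Krtap8-1 in basal epidermis (-0.60) and ORS (-0.13) and Krtap17-1 in matrix (0.27), each after raising the floor to the 75th percentile. Krtap13-1 in matrix (0.85) lost its call with the hybridisation controls. Those controls moved the median log2 ratio of all genes in basal epidermis, matrix and ORS to -0.06, -0.58 and -0.14, and the common median moved it to -0.07, -0.24 and -0.23. The share of all calls that were higher, 61.7%, 84.8% and 63.2%, was 52.2%, 55.3% and 39.1% with the common median and 52.3%, 17.9% and 48.9% with the controls.

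The member medians in basal epidermis, matrix and ORS were -0.59, -0.44 and -0.64 with the common median, -0.47, -0.71 and -0.63 with the controls, -0.54, -0.37 and -0.61 with quantile normalization, -0.61, -0.16 and -0.41 with the mean over probe sets, -0.26, -0.22 and -0.41 without cross-hybridising probe sets, -0.32, -0.16 and -0.24 when the floor was lowered to the 25th percentile, and -0.090, -0.011 and -0.048 without a floor. With a floor at the 75th percentile they were -0.60, -0.64 and 0.37, over 1, 6 and 2 measured members.

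Counts moved mostly with the floor. The share of all genes called was not counted under the alternatives, so the counts below have no background beside them. At the 25th percentile 28, 27 and 26 members were measured in basal epidermis, matrix and ORS. Of these 10 were lower and 1 higher in basal epidermis, 9 and 4 in matrix, and 4 and 2 in ORS. Of the calls over all genes at this floor, 66.4%, 83.1% and 66.2% were higher. At the 75th percentile 0 were lower in basal epidermis and ORS, 3 were lower and 1 higher in matrix, and 3 were richest in 2KO matrix. Without a floor 8 were lower and 1 higher in basal epidermis, 7 lower and 4 higher in matrix, and 4 lower in ORS. At 1.5-fold 5 were lower and 1 higher in basal epidermis, and 4 lower and 3 higher in ORS. At 3-fold 2 were lower and 1 higher in matrix and 0 lower in ORS. With the hybridisation controls 1 was higher in matrix. A higher floor leaves fewer members measured and a lower floor admits dim signals. Signal over background limits 25 of the 38 members, which no setting with this floor could measure.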

Other observations

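Of the 5 members with more than 1 probe set, Krtap5-1, Krtap6-3, Krtap16-3 and Krtap19-1 had every probe set below the floor on all 6 arrays, and Krtap12-1 had 1 of 2 above it. Probe sets that name Krtap2-4, Krtap4-13, Krtap6-1 or Krtap9-1 together with other genes also stayed below the floor throughout, with a highest signal of 44.3.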
